A study of Mus musculus with 106 samples.

Results

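Trimethylation of lysine 4 on histone H3 (H3K4me3) was compared at gene promoters between haematopoietic stem cells (HSC) and unstimulated bone marrow-derived macrophages (BMDM) of mice, from 23 lists of peaks, 12 of HSC and 11 of BMDM, out of 106 samples in the series. The members are all H3K4me3 lists whose titles name HSC without treatment or BMDM under control conditions, in control and in diabetic mice: 6 lists of control HSC, 6 of diabetic HSC, 6 of control BMDM and 5 of diabetic BMDM (numbers 1, 2, 4, 5 and 6). All mice were wild-type C57BL/6J aged 12 to 14 weeks. Diabetic mice received streptozotocin, a toxin of insulin-producing cells, at 42 to 45 mg/kg per day on 5 days, and those with blood glucose over 13.9 mmol/L were killed 6 weeks after the last dose, while control mice were not diabetic. HSC here are bone marrow cells left after magnetic depletion of cells bearing CD3, CD4, B220, Ter119 or Gr1, so the preparation is enriched for stem cells and also holds other immature cells. BMDM are marrow cells cultured for 7 days in medium with 5 mmol/L glucose and 20% conditioned medium of L929 fibroblasts, a source of macrophage colony-stimulating factor, with no further stimulus. Fewer cells of a type that carries the mark and less mark per cell cannot be told apart in such bulk chromatin. In the study's methods each replicate is an individual animal, while the labels number the lists without tying them to animals, and p values measure the spread between these lists.

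H3K4me3 is laid down around the start sites of active and poised genes, mostly in promoters rich in CpG dinucleotides, and its breadth differs between genes. Stem and progenitor cells renew themselves and give rise to red cells, platelets, granulocytes, lymphocytes and monocytes. Macrophages, which descend from monocytes, engulf particles, digest them in lysosomes, take up and release cholesterol, and sense microbes with Toll-like receptors. PU.1, the product of Spi1, is a transcription factor of the macrophage lineage. Gli3 and Unc93b1 mark the comparison: Gli3 is a zinc finger factor that transmits Hedgehog signals, and Unc93b1 carries nucleic acid-sensing Toll-like receptors from the endoplasmic reticulum to endosomes.

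The promoter sequences of 4 of the genes named below are shown as the 250 bases before the start site in RefSeq (GRCm38.p6). They run 5′ to 3′ on the gene's strand, with each CpG dinucleotide in capitals. Gli3 and Rad17 had higher scores in HSC and Hsd17b12 and Tdrkh had higher scores in BMDM. The Gli3 window, chr13:15463473-15463722 on the plus strand, held 34 CpG and 72.8% GC. The Rad17 window, chr13:100651062-100651311 on the minus strand, held 29 CpG and 70.0% GC. The Hsd17b12 window, chr2:94157910-94158159 on the minus strand, held 20 CpG and 49.6% GC, and the Tdrkh window, chr3:94412994-94413243 on the plus strand, held 19 CpG and 58.4% GC.
Gli3: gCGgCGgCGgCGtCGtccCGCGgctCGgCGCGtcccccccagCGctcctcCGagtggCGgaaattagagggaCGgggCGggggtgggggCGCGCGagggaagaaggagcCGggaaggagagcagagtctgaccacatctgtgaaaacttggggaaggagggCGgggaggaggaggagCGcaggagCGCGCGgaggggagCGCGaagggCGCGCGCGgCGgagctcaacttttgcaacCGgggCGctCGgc
Rad17: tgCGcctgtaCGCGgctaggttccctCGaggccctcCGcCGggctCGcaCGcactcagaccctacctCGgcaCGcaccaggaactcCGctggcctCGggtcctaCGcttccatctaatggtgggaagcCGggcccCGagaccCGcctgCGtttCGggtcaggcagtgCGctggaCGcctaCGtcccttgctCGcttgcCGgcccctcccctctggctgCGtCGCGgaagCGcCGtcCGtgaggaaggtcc
Hsd17b12: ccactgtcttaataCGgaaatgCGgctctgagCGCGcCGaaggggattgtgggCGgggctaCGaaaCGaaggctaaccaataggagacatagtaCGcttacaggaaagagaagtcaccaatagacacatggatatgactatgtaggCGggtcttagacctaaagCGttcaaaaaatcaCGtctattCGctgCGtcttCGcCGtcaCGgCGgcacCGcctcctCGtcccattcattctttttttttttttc
Tdrkh: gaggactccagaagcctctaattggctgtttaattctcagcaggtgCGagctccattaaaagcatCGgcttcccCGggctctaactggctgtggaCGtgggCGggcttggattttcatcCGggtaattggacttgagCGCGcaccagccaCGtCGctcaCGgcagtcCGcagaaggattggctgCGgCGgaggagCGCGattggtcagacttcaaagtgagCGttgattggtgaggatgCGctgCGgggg

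The lists were made by MACS2 for each library against its own input and carry no read totals, so depth is unknown and peak heights cannot be compared between libraries. HSC lists were shorter. They held 13730 to 145750 intervals (median 59726.5) against 66146 to 212718 (median 131406) in BMDM, a difference of -0.99 on the log2 scale (exact permutation of cell type within disease, two-sided, adjusted p = 0.0189 over 5 totals). A peak lay within 1000 bp of any start site of 65.2% ± 9.02 (SD, n=12) of 21938 protein-coding genes in HSC and of 72.6% ± 3.31 (SD, n=11) in BMDM (exact permutation, adjusted p = 0.0195). Of all intervals, 36.1% ± 14.4 in HSC and 23.2% ± 5.05 in BMDM lay over a promoter (exact permutation, adjusted p = 0.0189), while among the first 10000 intervals the shares were 85.8% ± 3.31 and 86.8% ± 2.03 (exact permutation, adjusted p = 0.46). The median width of a marked promoter was 732 ± 152 bp in HSC and 849 ± 113 bp in BMDM (exact permutation, adjusted p = 0.0823). Without diabetic BMDM list 2 the number of intervals, the share of genes and the share of intervals no longer passed (adjusted p up to 0.056), and within diabetic mice alone none of these differences passed (adjusted p = 0.601 for each of the 3).

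**Figure D1:**
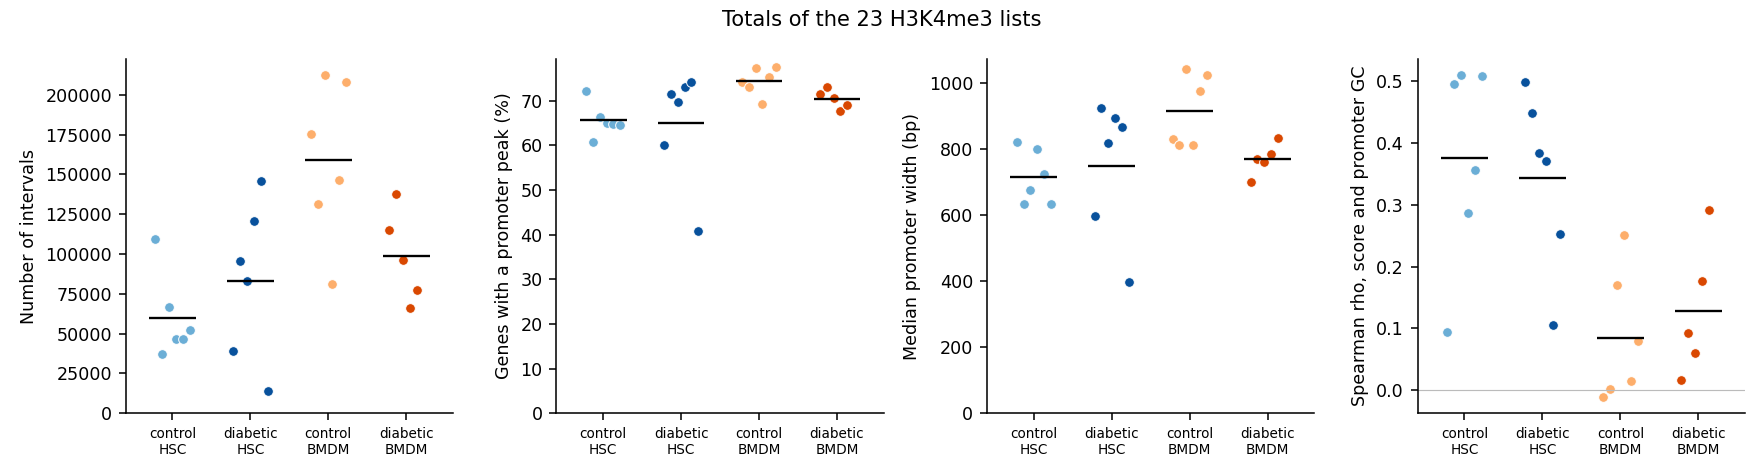
Totals of the 23 lists by group, with each list as a point and the group mean as a bar. The panels give the number of intervals, percent of genes with a promoter peak, the median width in bp and Spearman's rho between the promoter rank score and promoter GC content; HSC lists are shorter, and their rho (median 0.377) sits above that of most BMDM lists (median 0.0792).

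To compare lists of unequal length, each gene was given its best −log10 p among intervals within 1000 bp of any of its start sites, and genes were ordered within the list. The promoter rank score runs from 100 for the first gene to 0 for any gene beyond position 8946, the number of marked genes in the shortest list, diabetic HSC 6. A score of 0 therefore means a weaker peak or no peak. Scores of 11779 genes above 0 in at least 5 lists were tested with limma. Pearson's r between the scores of 2 lists ranged from 0.0342 to 0.701, and 19 of 23 lists were nearer, on average, to lists of their own cell type. The other 4, diabetic BMDM 6, control BMDM 4, diabetic HSC 5 and control HSC 1, were nearer to the other type (for control HSC 1, mean r of 0.340 with HSC and 0.345 with BMDM), whereas in H3K27ac, an acetylation found at active enhancers and promoters, 23 of 23 lists were nearer to their own type. In H3K27ac, control BMDM 5 and 6 had in an earlier reading resembled macrophages given lipopolysaccharide (LPS) and interferon gamma, and counts of calls are also given without these 2 lists.

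Promoters of 1811 genes differed in score between the cell types (limma, adjusted p under 0.05), 15.4% of those tested: 930 genes (7.9%) were higher in HSC and 881 (7.48%) were higher in BMDM. Of the genes tested, 248 were at 0 in every BMDM list and 77 in every HSC list, so they passed the filter through the other cell type alone. The calls include 48 and 11 of these, and their values are given without a test. With the lists as deposited, where only genes without a peak score 0, the split was 839 against 1847 and the median difference over all genes moved from 0.54 to -2.97 points. The count fell to 228 genes with the log2 number of intervals as a covariate and to 369 when genes were ordered by fold over background. It fell to 1047 without control BMDM 5 and 6, to 662 within control mice and to 21 within diabetic mice. The fit within control mice had 12 lists, a limit of 13336 and 13931 genes tested. That within diabetic mice had 11 lists, a limit of 8946 and 10020 genes tested, so 662 and 21 are not like for like. Of the 1811 genes, 223 were also called with the covariate and 249 on fold, in each case in the same direction. The number of intervals moves with the cell type, and the part of list length in these calls was not tested apart from that fit.

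**Figure D2:**
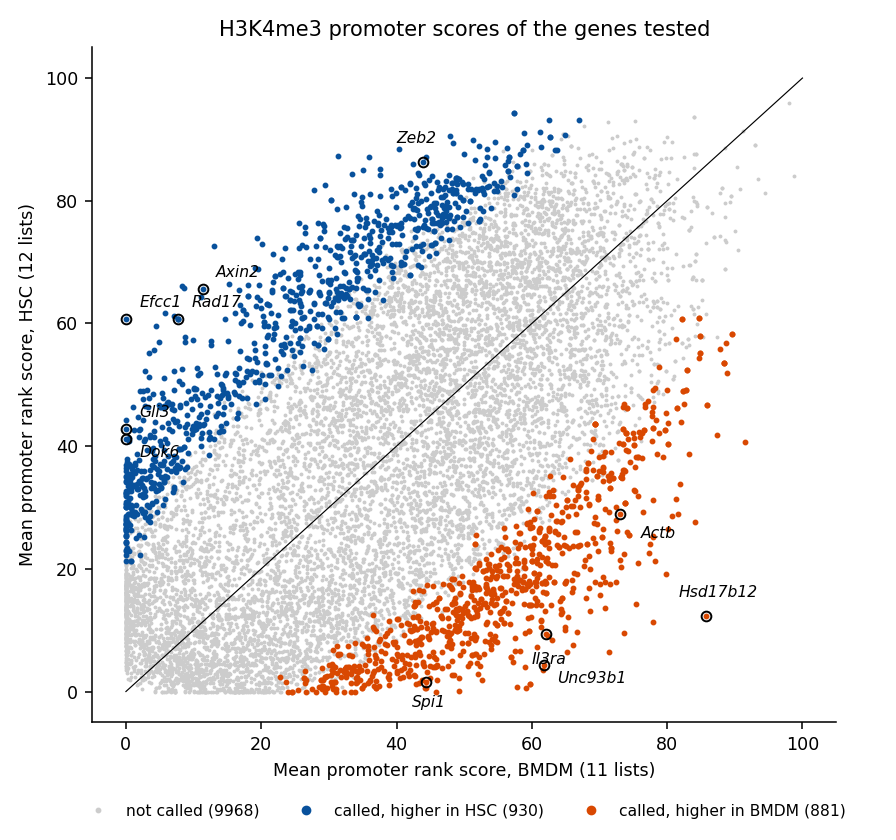
Mean promoter rank score of each of the 11779 genes tested in BMDM (x axis, 11 lists) and HSC (y axis, 12 lists), with genes called higher in HSC in blue (930) and in BMDM in orange (881) and the line of equal scores. Gli3, Dok6 and Efcc1 lie at a BMDM mean of 0, and Hsd17b12 lies farthest toward BMDM.

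Promoter base composition moved with the cell type. Spearman's rho between score and GC content in the 1 kb around the start site, across genes, which are not independent replicates, ranged from 0.0938 to 0.510 in HSC lists (median 0.377) and from -0.011 to 0.292 in BMDM lists (median 0.0792). All 12 HSC lists lay above the BMDM median and 8 above every BMDM list. In H3K27ac lists of the same groups the medians were 0.288 in HSC and 0.290 in BMDM. The median promoter GC content was 66.7% for genes higher in HSC, 59.1% for those higher in BMDM and 61.8% for all tested. With the mean of 20 GC bins taken out of each list, an alternative added after the data were seen, 1167 genes were called, 564 higher in HSC and 603 in BMDM, and 916 of the 1811 were among them.

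Cell types did not overlap in any list for 9 genes, 0.0764% of those tested, 4 higher in HSC (0.034%) and 5 higher in BMDM (0.0424%). The HSC genes were Dok6, an adaptor of receptor tyrosine kinases, and Rad17, a loader of the checkpoint clamp in the DNA damage response, whose promoter interval is shared with Ak6 and Taf9. Rad17 scored 26.2 to 93.4 in HSC (median 67.9) and 0 to 24.0 in BMDM (median 4.06). The difference was 53.7 points (SE 8.06, limma adjusted p = 0.000161), and every HSC list lay above every BMDM list. In the lists as deposited Rad17 had a peak in all 23 and a median position of 2869 in HSC and 8584 in BMDM, so the cell types differed in the order of Rad17 and not in its presence. Dok6 scored 0.307 to 93.7 in HSC (median 33.5) and 0 in each of the 11 BMDM lists, so it passed the filter through HSC lists alone.

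Among the 5 genes higher in every BMDM list, Hsd17b12, a reductase in the elongation of very long-chain fatty acids, scored 53.3 to 100.0 in BMDM (median 87.9) and 0 to 41.9 in HSC (median 8.83). Its difference of -73.5 points (SE 7.44, limma adjusted p = 7.09e-07) was the largest of all genes tested in this fit, and its median position was 1080 in BMDM and 8157 in HSC. The gene spans chr2:94032689-94157964, and it was not called when only the first start site in the annotation was used. Il3ra, the alpha subunit of the interleukin-3 receptor, scored 41.3 to 85.0 in BMDM and 0 to 31.1 in HSC (difference -52.6, SE 6.85, limma adjusted p = 5.68e-05). Pwwp2b scored 37.1 to 91.0 against 0 to 36.1 (difference -53.2, limma adjusted p = 0.000161). Tdrkh, a Tudor domain protein of the piRNA pathway, scored 13.1 to 95.1 against 0 to 4.63 (difference -56.9, limma adjusted p = 0.000161). Spry4, an inhibitor of receptor tyrosine kinase signalling, scored 16.8 to 96.0 against 0 to 6.54 (difference -58.3, limma adjusted p = 0.00016). Of the 7 genes named for lack of overlap, 6 were higher in the same cell type in H3K27ac. Spry4 was the exception, with a mean H3K27ac score of 24.6 in HSC and 13.0 in BMDM (difference 11.5, limma adjusted p = 0.021).

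Gli3, at chr13:15463235-15730026 on the plus strand, scored 0 to 95.1 in control HSC (median 56.0), 0 to 70.1 in diabetic HSC (median 34.3) and 0 in all 11 BMDM lists. It was above 0 in 10 of 12 HSC lists, the exceptions being control HSC 4 and diabetic HSC 5. Gli3 thus passed the filter through HSC lists alone. A Gli3 promoter peak was present in every one of the 23 lists, at a median position of 5252 in HSC and 11202 in BMDM. In 12 lists of BMDM given LPS and interferon gamma the score was above 0 in 2. H3K27ac scored 0 at Gli3 in all lists of both cell types. An H3K27ac peak was nevertheless present at Gli3 in 4 HSC and 3 BMDM lists, beyond the limit of 12464 genes used for that mark.

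Unc93b1, at chr19:3935186-3949340 on the plus strand, had the opposite pattern. It scored 32.6 to 99.2 in control BMDM (median 77.4) and 0 to 88.7 in diabetic BMDM (median 50.8), with the 0 in diabetic BMDM 6. In control HSC it did not exceed 0.0559, and in diabetic HSC it was 0 in 5 lists and 51.8 in diabetic HSC 5. The difference was -57.1 points (SE 9.94, limma adjusted p = 0.000748), and the lists overlapped only through diabetic BMDM 6, diabetic HSC 5 and control HSC 2. A peak was present in 11 of 12 HSC lists and all 11 BMDM lists, at median positions of 10297 and 2594. H3K27ac also differed, with mean scores of 25.0 in HSC and 66.7 in BMDM (limma adjusted p = 6.6e-07), and BMDM given LPS and interferon gamma scored above 0 for H3K4me3 in 10 of 12 lists.

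**Figure D3:**
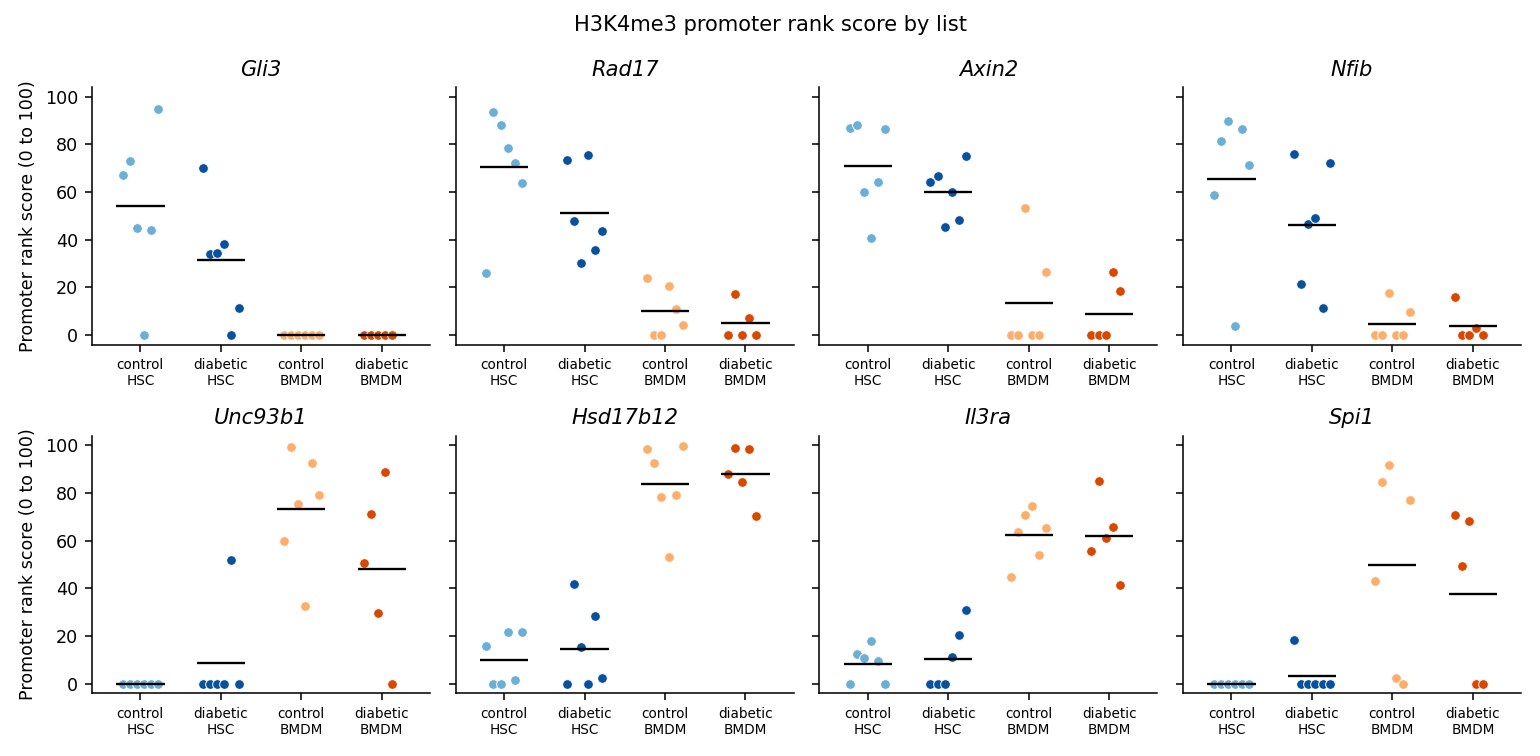
Promoter rank score (0 to 100) of 8 genes in each list by group, with each list as a point and the group mean as a bar. Gli3 is at 0 in all 11 BMDM lists, Rad17 and Hsd17b12 do not overlap between the cell types, and Unc93b1 has only diabetic HSC 5, at 51.8, far above 0 in HSC.

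Beyond the genes without overlap, genes among the 8 largest differences in each direction were named after their values were seen. Toward HSC these were Efcc1, Tmem56, Ranbp17, Rbm33, Dnajc6, Bnc2, Tmem30b and Pwwp2a. Efcc1 scored 0 to 90.2 in HSC (median 66.2) and 0 in every BMDM list, so it also passed the filter through HSC lists alone. Tmem56 had means of 72.7 and 13.0. Dnajc6, the auxilin that uncoats clathrin vesicles, had means of 65.8 and 8.61, and H3K27ac means of 53.4 and 3.82. Axin2, a negative regulator of Wnt signalling, scored 40.5 to 88.1 in HSC and 0 to 53.3 in BMDM (difference 54.6, limma adjusted p = 0.000161), with H3K27ac means of 36.6 and 0.187. The transcription factor genes Nfib (means 55.7 and 4.22) and Cebpg (81.7 and 27.8), and Sumo2 (73.0 and 20.1), were also higher in HSC. Nfib scored 0 for H3K27ac in all HSC lists, which means a weaker peak or no peak.

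Toward BMDM, again beyond the genes without overlap, the largest differences included those at Slc29a2, Hs3st1, Itga8, Usp45, Gsto1, Pex11a and Osbpl3. Slc29a2, a nucleoside transporter, scored 44.2 to 99.8 in BMDM and 0 to 49.9 in HSC (difference -65.7, limma adjusted p = 1.09e-05). Pex11a, which acts in the division of peroxisomes and shares its promoter interval with Wdr93, was above 0 in 1 HSC list and 10 BMDM lists. Usp45 (difference -61.4) was not apart when only the first start site was used (difference 1.47). Anxa2 and S100a10, whose products form a membrane-binding complex, had differences of -54.6 and -54.9 points, and Orai3, a calcium channel, one of -55.8. The 16 genes with the largest differences beyond those without overlap were all called with the list length covariate, and 9 of them on fold. All had an H3K27ac difference of the same sign. Hsd17b12 and Spry4 are not among the 16, and Spry4 had the opposite sign. Efcc1 is counted with the 16 although it passed the filter through HSC lists alone, so it adds no support to these counts. Of the called genes in the lists of known genes described next, 20 of the 27 tested in H3K27ac had the same sign.

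Genes of macrophage function were read from lists of known genes. Of 10 lipid uptake and efflux genes tested, 4 were higher in BMDM and 0 in HSC, with a median difference of -25.7 points against 0.54 for all genes tested. The shares to read such counts against are the 7.9% of all genes tested that were higher in HSC and the 7.48% higher in BMDM, and no list was tested as a whole. Soat1, which esterifies cholesterol, scored 36.6 to 97.1 in BMDM (median 82.8) and 0 to 88.3 in HSC (median 20.3), a difference of -52.3 (SE 10.1, limma adjusted p = 0.00184). The lipoprotein receptor genes Lrp1 (difference -44.0, limma adjusted p = 0.016) and Scarb1 (-42.8, limma adjusted p = 0.00824) and the fatty acid-binding protein gene Fabp5 (-28.9, limma adjusted p = 0.0349) were the others. With the covariate, Soat1 was called (adjusted p = 0.0284) and Lrp1, Scarb1 and Fabp5 were not. Of 8 Toll-like receptor pathway genes tested, Unc93b1 and Traf6, an adaptor ligase downstream of these receptors (difference -29.9, limma adjusted p = 0.0419), were higher in BMDM and 0 in HSC, with a median difference of -22.1. Unc93b1 was chosen as a marker with earlier results known, so it adds no support to this count. Without diabetic HSC 6, which sets the limit of the score, 14 genes of this pathway were tested. Of these, 2 were again higher in BMDM and the median was -13.0.

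Of 16 macrophage transcription factors tested, 4 were higher in BMDM and 1 in HSC (median difference -14.8, and -8.46 over 17 genes without diabetic HSC 6). Spi1 was above 0 in 8 of 11 BMDM lists, up to 91.7, and in 1 of 12 HSC lists, at 18.3 (difference -42.6, SE 10.6, limma adjusted p = 0.00977). Egr1 (difference -36.5, limma adjusted p = 0.0252) and Bhlhe40 (-31.9, limma adjusted p = 0.0228) were also among the 4, and Egr1 had the reverse order in H3K27ac, 83.2 in HSC and 50.9 in BMDM. Zeb2, a repressor with roles in stem cells and macrophages, was higher in HSC, at 58.1 to 98.5 against 0 to 93.8 (difference 41.9, limma adjusted p = 0.00393). With the covariate, Zeb2 was called (adjusted p = 0.0338) and Spi1 was not (adjusted p = 0.153). Of 26 lysosome genes tested, 2 were higher in BMDM and 0 in HSC (median difference -3.15), near the 7.48% of all genes tested that were higher in BMDM: Man2b1, a lysosomal mannosidase (3.53 ± 7.85 in HSC, n=12, and 61.7 ± 24.3 in BMDM, n=11, difference -58.2, limma adjusted p = 0.00016), and Psap, the precursor of saposins (-33.7, limma adjusted p = 0.0428).

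**Figure D4:**
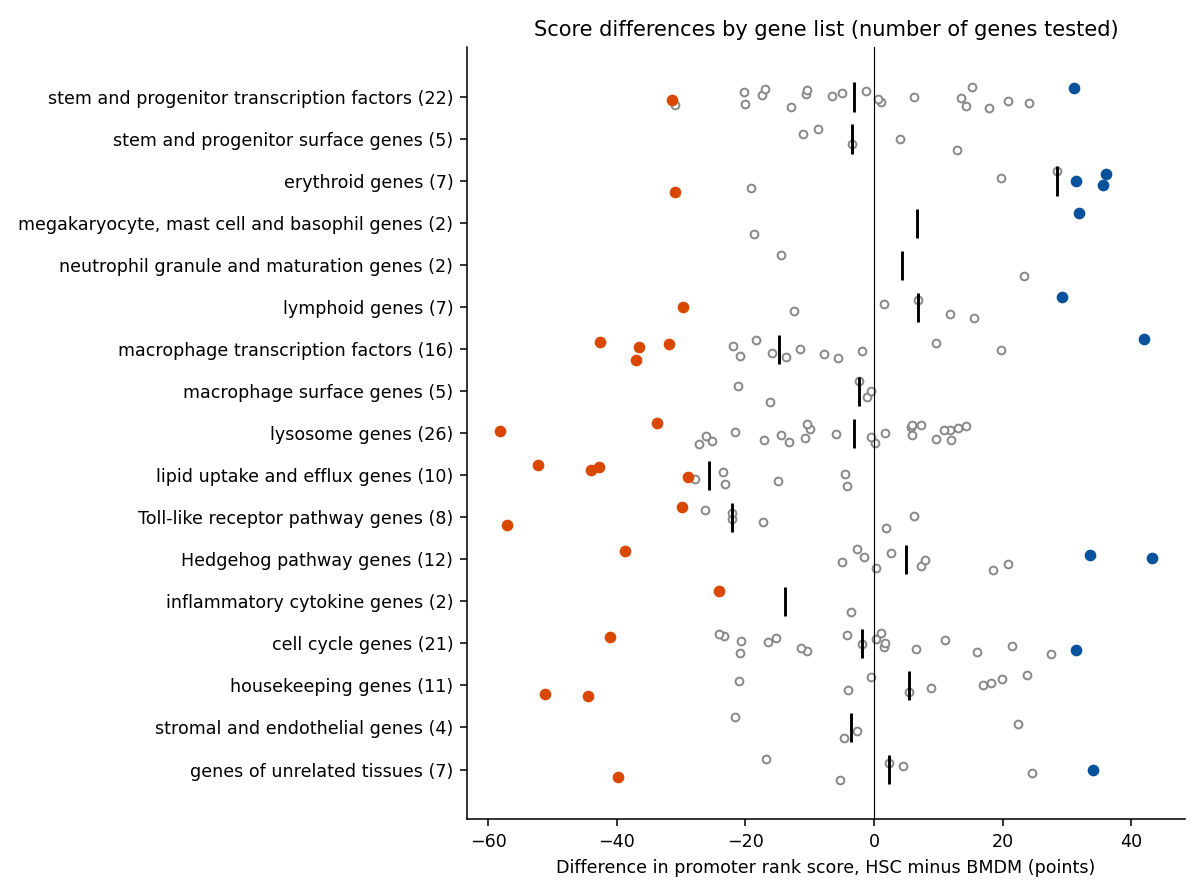
Difference in promoter rank score, HSC minus BMDM in points, of each tested gene in 17 lists, with open points for genes not called, filled blue points for genes higher in HSC, filled orange points for genes higher in BMDM and a bar at the median of the list. Lipid, Toll-like receptor and macrophage transcription factor genes sit mostly below 0 (medians -25.7, -22.1 and -14.8), and erythroid genes mostly above (28.5). Without diabetic HSC 6 these medians are -22.8, -13.0, -8.46 and 7.72.

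Stem and progenitor genes were called in both directions, at shares below the 7.9% (HSC) and 7.48% (BMDM) of all genes tested. Of 22 stem and progenitor transcription factors tested, Sox4 was higher in HSC (means 65.4 and 35.4, difference 31.1, limma adjusted p = 0.0326) and Fli1 in BMDM (39.1 and 70.9, -31.4, limma adjusted p = 0.0187), and the median difference was -3.10, which turned to 2.91 with the list length covariate and to 0.90 with GC content taken out. Of 5 stem and progenitor surface genes tested, 0 were called in either direction by limma. Kit had a peak in 11 of 12 HSC lists and 11 of 11 BMDM lists, with mean scores of 21.4 and 8.31, and Cd34 in 12 and 11, with means of 19.3 and 22.1. Ly6a, which encodes Sca-1, had a peak in 0 HSC lists and 2 BMDM lists. Of 7 erythroid genes tested, 3 were higher in HSC and 1 in BMDM, with a median difference of 28.5: Car2, a carbonic anhydrase (76.1 and 40.2, difference 36.0, limma adjusted p = 0.0261), and Ank1 (35.5, limma adjusted p = 0.0108) and Sptb (31.3, limma adjusted p = 0.0316) of the red cell membrane skeleton, with Klf1, an erythroid transcription factor, in BMDM (-31.0, limma adjusted p = 0.0438). Without diabetic HSC 6, 12 erythroid genes were tested, again with 3 higher in HSC and 1 in BMDM, and the median difference was 7.72. With the covariate 0 of the 7 were called, and Klf1 was higher in HSC by H3K27ac (means 64.6 and 52.9).

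Markers of other cells that lineage-depleted marrow could hold mostly scored 0, which means a weaker peak or no peak. No deposited list had a peak at 5 of 18 neutrophil, 4 of 24 lymphoid and 4 of 14 megakaryocyte, mast cell and basophil genes. H3K27ac peaks lay in more HSC than BMDM lists at Ctsg (11 and 3), Fcnb (12 and 1), Igll1 (10 and 0) and Gp1ba (11 and 1). Camp (6 and 8) and Ppbp (2 and 5) went the other way, and S100a8 had none. Whether such cells were present was not tested. Of 18 neutrophil genes 15 scored 0 in every list and 2 were tested, with 0 calls, and their summed score was 9.06 to 95.9 in HSC and 0 to 159 in BMDM. Of 24 lymphoid genes 17 scored 0 in every list, and of the 7 tested Bcl11b was higher in HSC (difference 29.3, limma adjusted p = 0.0249) and Gata3 in BMDM (-29.7, limma adjusted p = 0.0375). Of 14 megakaryocyte, mast cell and basophil genes 11 scored 0 in every list, and of 2 tested Gp1bb was higher in HSC (31.8, limma adjusted p = 0.0198). Of 13 stromal and endothelial genes 7 scored 0 in every list and 4 were tested, with 0 calls. Of 16 inflammatory cytokine genes 14 scored 0 in every list, and Ptgs2, an inducible cyclooxygenase, scored 0 in all HSC lists and 0 to 80.4 in BMDM, so it passed the filter through BMDM lists alone.

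Many defining markers were at 0 on this score. Of 26 macrophage surface genes 16 scored 0 in every list, Adgre1, which encodes F4/80, among them, and 0 of the 5 tested were called. As deposited, 13 of the 26 had peaks in a larger share of BMDM lists and 2 in a larger share of HSC lists. BMDM lists are the longer ones, and other gene lists leaned the same way. Stem and progenitor surface genes stood at 12 and 0 and lymphoid genes at 11 and 2, while erythroid genes stood at 4 and 6. No list had a peak at 7 of the 26. By the exact test 3 of the 26 were called. Of all 3638 testable genes, 8.03% were called toward BMDM and 0.11% toward HSC. Cd68 had a peak in 3 of 12 HSC and 11 of 11 BMDM lists, Siglec1 in 0 and 9 and Tyrobp in 3 and 10. Csf1r, at 3 and 9, was not called (exact test adjusted p = 0.0833), and Trem2 was at 3 and 4. Gata1, the erythroid factor, had an H3K4me3 peak in 1 HSC list and 2 BMDM lists, and an H3K27ac peak in 12 and 1. Housekeeping genes were not level. Of 11 tested, Gapdh (means 17.9 in HSC and 69.4 in BMDM, difference -51.2, limma adjusted p = 0.00317) and Actb (29.0 and 73.0, -44.4, limma adjusted p = 0.0144) were higher in BMDM, although the median of the list was 5.42, and neither was called with the covariate. Of 7 genes of unrelated tissues tested, the stem cell factor gene Sox2 was higher in HSC (34.1, limma adjusted p = 0.0111) and the eye factor gene Pax6 in BMDM (-39.8, limma adjusted p = 0.0057). The part of such differences in the other calls was not tested.

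Of 12 Hedgehog pathway genes tested, 2 were higher in HSC and 1 in BMDM (median difference 4.90), against 7.9% and 7.48% of all genes tested. Gli3 is 1 of the 2, and it was chosen as a marker with earlier results known and passed the filter through HSC lists alone. It adds no support to that count. Besides Gli3, Gas1, a co-receptor of Hedgehog ligands, scored 0 to 86.6 in HSC and 0 to 17.9 in BMDM (difference 33.6, limma adjusted p = 0.018), and on fold its order turned (-5.41, limma adjusted p = 0.866). Boc, another co-receptor, was higher in BMDM, at 10.2 to 85.9 against 0 to 60.0 (-38.8, limma adjusted p = 0.00977). Of 21 cell cycle genes tested, Ccne1, which encodes cyclin E1, was higher in HSC (means 65.7 and 34.1, limma adjusted p = 0.0336) and Aurka, the Aurora A kinase, in BMDM (23.5 and 64.0, limma adjusted p = 0.0242), and the median difference was -1.92. Of the 32 called genes in the lists, 7 were also called with the covariate (Unc93b1, Zeb2, Soat1, Man2b1 and Pax6 among them), 4 on fold (Zeb2, Lrp1, Unc93b1 and Boc) and 23 without control BMDM 5 and 6. The 9 not called without those 2 lists were Sox4, Klf1, Gata3, Bcl11b, Egr1, Fabp5, Ptgs2, Ccne1 and Aurka (limma adjusted p of 0.0556 to 0.134).

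Presence of a peak among the first 8946 genes of a list was tested apart from the score. Of 6588 genes whose number of holders could reach an unadjusted p of 0.05, 261 (3.96%) differed in an exact test over control and diabetic strata, 171 more often in HSC (2.6%) and 90 more often in BMDM (1.37%). Dok6 was held by all 12 HSC lists and 0 BMDM lists, and 0 genes were held by all BMDM lists and 0 HSC lists. With the lists as deposited, 0 genes had a peak in all 12 HSC lists and in 0 BMDM lists. A Dok6 peak was thus present in BMDM beyond the limit. The count was 51 without control BMDM 5 and 6, and 0 when genes were ordered on fold, where 1417 passed an unadjusted p of 0.05. Leaving out single lists gave 47 (without diabetic HSC 2) to 320.

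With the lists as deposited, 296 of 3638 testable genes (8.14%) differed in occupancy, 292 more often in BMDM (8.03%) and 4 more often in HSC (0.11%), where BMDM lists are the longer ones. The 4 genes marked more often in HSC were Hax1 (11 HSC and 3 BMDM lists), Hemgn, a gene of haematopoietic progenitors (9 and 1), Serpinb9, an inhibitor of granzyme B (10 and 2), and Chrdl1 (12 and 5), with exact test adjusted p values of 0.033 to 0.0437. Some of those marked more often in BMDM are named here, chosen after their values were seen. Siglec1, a sialic acid receptor of macrophages, had a peak in 0 HSC and 9 BMDM lists (exact test adjusted p = 0.0144). C1qc of complement C1q (2 and 11) and Clec10a (1 and 10) had the same adjusted p. Fabp4 (3 and 11, exact test adjusted p = 0.0159) and Cd68 (3 and 11, exact test adjusted p = 0.0221) followed. Ccl5 (1 and 8, exact test adjusted p = 0.033) and Tyrobp (3 and 10, exact test adjusted p = 0.0437) were others. The smallest adjusted p was that of Gm10142 (0 and 11, exact test adjusted p = 0.00852). Genes of other tissues were also called, such as the protamine gene Prm1 (3 and 11) and the keratin gene Krt5 (2 and 10). The genes named here do not describe the 292 as a set.

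Width was compared for 8214 genes with a promoter peak in all 23 lists, as the log2 width of the strongest interval at the promoter minus the median of its list. It differed for 238 genes (2.9%), 119 wider in HSC (1.45%) and 119 wider in BMDM (1.45%), with overlap between the cell types at each of the 12 named. Without centring, the split was 3 wider in HSC and 121 in BMDM. Only 18 genes were called with the list length covariate and 2 within diabetic mice, and 141 were called without control BMDM 5 and 6. Leaving out control BMDM 2, control BMDM 6 or diabetic BMDM 2 gave 153, 156 and 156.

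Promoters wider in HSC included Mms19, of the cytosolic iron-sulfur assembly machinery, whose interval is shared with Ubtd1. It spanned 464 to 2196 bp in HSC (median 1350) and 623 to 1213 bp in BMDM (median 707), a centred log2 difference of 1.10 (SE 0.14, limma adjusted p = 0.000151), and was also called with the covariate (adjusted p = 0.00678). Nr3c1, the glucocorticoid receptor gene, spanned a median of 2452.5 bp in HSC and 1028 bp in BMDM (1.07, limma adjusted p = 0.0155). Acvr1b, an activin receptor gene, spanned medians of 1270.5 and 667 bp (0.89, limma adjusted p = 0.00723). Yy1 (0.87, limma adjusted p = 0.0437) and Ube2j1 (0.86, limma adjusted p = 0.0155) also had higher scores in HSC, by 41.6 and 33.1 points (limma adjusted p = 0.00302 and 0.0325). Hnrnpd, which shares its interval with 4930524J08Rik, had a difference of 1.10 (limma adjusted p = 0.0466). Scores of Mms19, Nr3c1, Acvr1b and Hnrnpd were not called different.

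Promoters wider in BMDM included Fat3, a protocadherin gene, at 266 to 3534 bp in HSC (median 708) and 1208 to 4105 bp in BMDM (median 3062), a difference of -1.44 (SE 0.28, limma adjusted p = 0.00685). Gfi1, a repressor that acts in stem cells and granulocytes, had medians of 792.5 and 4228 bp (-1.26, limma adjusted p = 0.0299). In the 6 control HSC lists it spanned 582 to 974 bp, while diabetic HSC lists 2, 4 and 5 spanned 4332, 4187 and 4074 bp, list 3 spanned 2442 bp and lists 1 and 6 spanned 575 and 521 bp, a difference between control and diabetic HSC that was not tested. Tril, an accessory protein of Toll-like receptor 4, spanned 246 to 3547 bp in HSC and 3412 to 4168 bp in BMDM (-1.26, limma adjusted p = 0.0277), so the BMDM lists were close together and the HSC lists were not. Zhx2 (-1.16, limma adjusted p = 0.0207), B3gnt8 (-1.29, limma adjusted p = 0.00723) and Gm21887 (-1.41, limma adjusted p = 0.0173) were the others, and Zhx2 also had a higher score in BMDM (-29.8, limma adjusted p = 0.0496). Of the 12 named widths, those of Mms19, Gm21887 and Zhx2 were also called with the covariate. Without control BMDM 5 and 6 the widths of Hnrnpd, Yy1, Gm21887, Gfi1 and Tril were not called (limma adjusted p of 0.0528 to 0.139), nor were the scores of Ube2j1 (adjusted p = 0.0621) and Zhx2 (adjusted p = 0.0756).

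**Figure D5:**
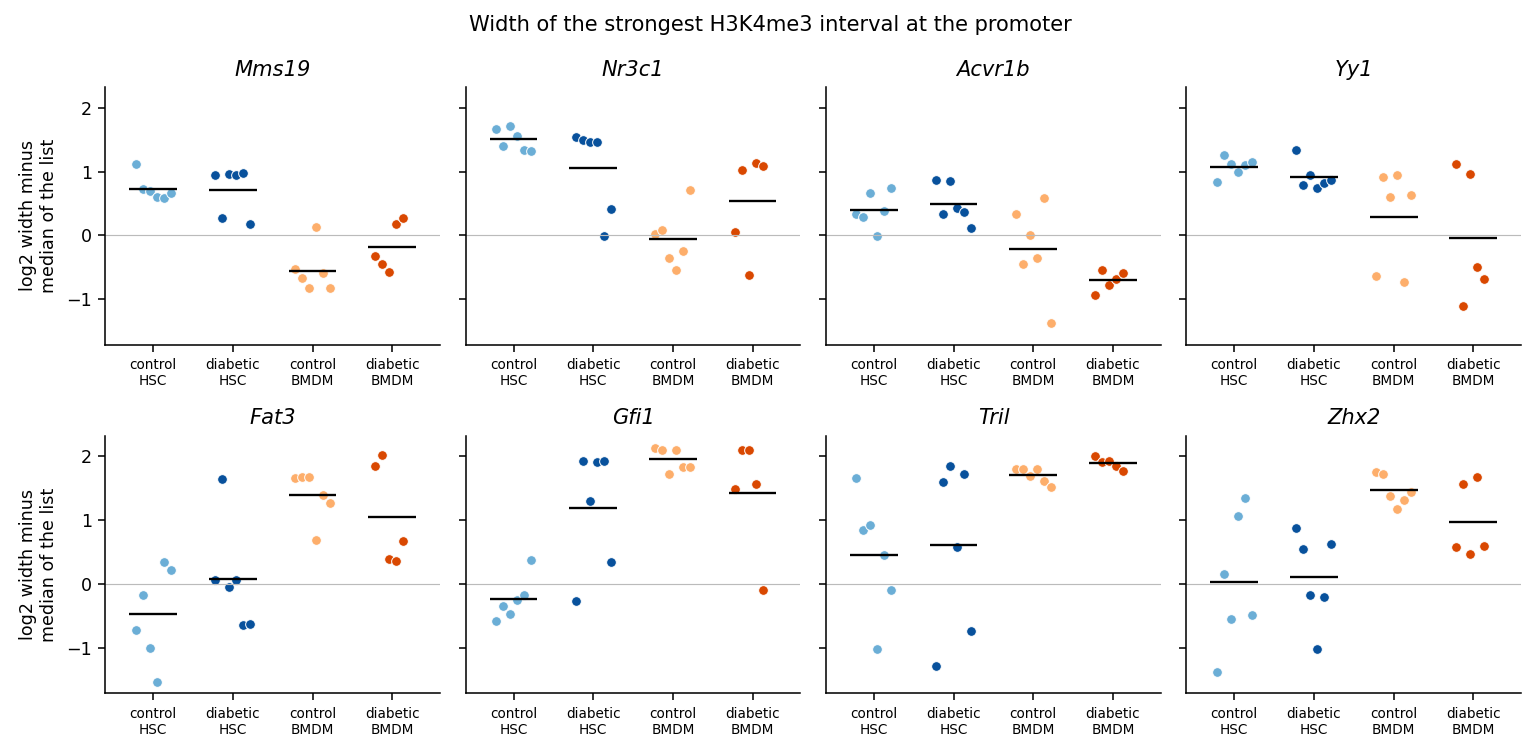
Log2 width of the strongest interval at the promoter minus the median of its list, for 8 genes in each list by group, with each list as a point and the group mean as a bar. Mms19 is wider in most HSC lists, Tril is uniformly wide in BMDM (3412 to 4168 bp) and spread in HSC (246 to 3547 bp), and every panel has overlap between the cell types.

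Acetylation of H3K27 in the same 4 groups was scored in the same way and, added after the H3K4me3 values were seen, gives a second mark that the calls did not use. In H3K27ac, 2463 of 13882 genes tested were higher in HSC (17.7%) and 2311 in BMDM (16.6%). Of 830 genes higher in HSC by H3K4me3 and tested in H3K27ac, 75.4% had a higher H3K27ac mean in HSC, 34.2% were called higher in HSC and 4.82% in BMDM. Of 881 genes higher in BMDM by H3K4me3, 34.3% had a higher H3K27ac mean in HSC, 8.17% were called higher in HSC and 33.0% in BMDM. Over the 11152 genes tested in both marks these shares were 52.3%, 16.9% and 17.9%. After GC content was taken out of the H3K4me3 scores, 79.3% of the HSC genes and 27.5% of the BMDM genes had a higher H3K27ac mean in HSC.

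The cell type difference was not shown to depend on diabetes. In limma's test of the interaction between cell type and disease 0 of 11779 genes passed an adjusted p of 0.05 (0.0%), and 491 passed an unadjusted p of 0.05. Leaving out diabetic HSC 1 gave 6 genes. The mean Gli3 score in HSC was 54.0 in control and 31.4 in diabetic mice, and that of Unc93b1 in BMDM was 73.2 and 48.0, within the spread between lists of a group.

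RefSeq promoters of 300 bases, 250 before and 50 after the start, were matched by symbol for 705 of the 930 genes higher in HSC, 688 of the 881 higher in BMDM, 9131 of the 11779 tested and 16505 of all 21938 genes. Their median GC content was 68.7%, 61.0%, 63.7% and 57.3%, and the median ratio of observed to expected CpG was 0.872, 0.738, 0.804 and 0.617. The letters GAGGAAGT, the core of a PU.1 site, were found on either strand in 1.13% of HSC promoters, 3.2% of BMDM promoters, 2.42% of those tested and 3.18% of all. GATA factors recognise AGATAA, which was in 3.12%, 6.25%, 4.7% and 9.34%, and Runx factors recognise TGTGGT, found in 8.94%, 12.9%, 10.5% and 14.6%. The AP-1 letters TGACTCA were in 2.7%, 2.62%, 2.85% and 4.42%, and the E-box CACGTG in 9.22%, 11.3%, 10.4% and 8.11%. Of the 4 printed windows the one of Gli3 holds the Runx letters.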

How the data were processed

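ChIP-seq of H3K4me3 was read from 23 deposited narrowPeak lists (50-base single reads), and 35 further lists (23 of H3K27ac and 12 of H3K4me3 in stimulated BMDM) served as side readouts. The submitters' processing notes name Trim Galore 0.3.3, cutadapt 1.8, FastQC 0.11.3, Bowtie2 2.2.6, Picard 2.19.2 and 2.18.14, bedtools 2.19.1, MACS2 2.2.7.1 and builds GRCm38 and mm10. Each deposited list gives a fold over background (a ratio) and MACS2's −log10 of p and of q for every peak, computed by the authors against the input of the same number and comparable only inside a list. Lists carry no depth, so no counting interval was given. The deposited score column was not used.

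Summits of an interval were merged. Genes and start sites (93513 of 21938 genes) came from GENCODE for GRCm38. The promoter rank score, its centred width counterpart and the interaction were fitted with limma 3.58.1 in R 4.3.3, with disease as a block and Benjamini-Hochberg adjustment over all genes tested, and occupancy with an exact conditional test over 2 strata. List totals used exact permutations (426888 arrangements). GC content was taken from 1000 bases around the start site. Fits were tested on simulated data with independent noise of a single size. The simulated lists held no differences in list length or GC content, so that test does not cover the part of either in the calls. The design, the compared lists, the marker genes and the gene lists were chosen with earlier results of these data known. Named genes were, for the score, up to 12 called per direction without overlap, for width the 6 largest called per direction and for occupancy up to 5 held only in a cell type, skipping shared intervals, together with called genes of the lists. Others were chosen after their values were seen. The H3K27ac fit, the GC alternatives and the fits without diabetic HSC 6 at an unchanged limit were added after seeing the data. Python 3.11.15 was used. Some genes that the rules would name are not reported here.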

Additional observations from a re-analysis of the deposited data

Results flagged for a closer look

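Among 100 groups of 5 or 6 lists examined for a list far from the others, 15 were singled out. About 5 would be expected by chance for normally distributed values. In a group at 0 apart from a single list, any value is singled out, so the 15 cannot be set against the 5. For the promoter rank score, control HSC 1 and diabetic HSC 1 stood above the rest of their groups at Spry4 (6.54 and 0.794) and at Tdrkh (2.86 and 4.63), all low values beside those of BMDM. Diabetic HSC 5 stood out at Unc93b1 (51.8, the other 5 lists at 0) and at Pwwp2b (29.7), and control HSC 2 at Unc93b1 (0.0559, the other 5 at 0). For width, control HSC 1 stood out at Mms19 (2196 bp), control BMDM 4 at Mms19 (1081 bp) and Zhx2 (2244 bp), control BMDM 6 at Nr3c1 (2045 bp), and control BMDM 3 at Tril (4168 bp). The shortest list, diabetic HSC 6, had the narrowest Yy1 (748 bp) and Ube2j1 (438 bp) intervals of its group, and diabetic HSC 2 the widest Fat3 interval (3534 bp). Diabetic HSC 5 and control HSC 1 are also 2 of the 4 lists whose scores were nearer to the other cell type. The causes were not tested.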

How the results depend on the processing

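Results past the threshold depended on list length, the ranking column and the mice included, and the cause was not tested. For the score, counts were 228 with the list length covariate, 1167 with GC taken out, 155 with both and 369 on fold. They were 1047 without control BMDM 5 and 6, 662 in control mice (limit 13336) and 21 in diabetic mice (limit 8946). Without single lists they were 1245 to 2665, the latter without diabetic HSC 6, where the limit rose to 13186 and 14515 genes were tested, and 1821 with that list left out at an unchanged limit. For width, where 238 were called, counts were 1549 with summed intervals, 124 without centring, 18 with the covariate, 451 for genes marked in at least 18 lists, 141 without control BMDM 5 and 6, 2 in diabetic mice and 153 to 333 without single lists. For occupancy they were 0 on fold, in control mice (103 at an unadjusted p under 0.05) and in diabetic mice (272), 145 at a −log10 q of 3 or more, 51 without control BMDM 5 and 6, 161 without diabetic HSC 6 at an unchanged limit, and 47 to 320 without single lists. The interaction gave 0 to 6 without single lists, and H3K27ac gave 3138 on fold in place of 4774.

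In diabetic mice the differences in list totals were -0.55 in log2 intervals, -5.43 in percent of genes and 8.91 in percent of intervals over promoters, and in control mice the log2 width difference passed at -0.36. Without single lists the totals ranged from -1.11 to -0.77, -8.07 to -4.72, 8.97 to 14.1, and for log2 width -0.26 to -0.14, where it passed without diabetic HSC 2 or 4. Without diabetic BMDM 2, intervals, genes and promoter share did not pass. For single genes, Usp45 turned to 1.47 with the first start site and Gas1 to -5.41 on fold. Replicate numbers did not pair the lists: of 11 same-numbered pairs 1 had a correlation of deviations over 0.1 (range -0.0845 to 0.127), and 2 HSC lists correlated best with their own number. With the replicate block 1328 genes were called for the score and 138 for width (50 wider in HSC, 88 in BMDM).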
